A study of Homo sapiens with 6 samples.

Results

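The genes described are 44 of the 23152 genes in the count table, taken by symbol from a list written with earlier results of these data known: ATF4 with 11 other regulators and known targets of its pathway, 7 enzymes of asparagine, serine and one-carbon metabolism, 6 amino acid transporters and 19 genes for cytosolic aminoacyl-tRNA synthetases. ATF4 is a transcription factor that is made when the translation factor eIF2 is phosphorylated, which happens when amino acids run short, when proteins misfold in the endoplasmic reticulum, or when mitochondria or heme supply fail. It switches on genes that import and synthesize amino acids and charge tRNAs with them, and, under lasting stress, genes such as DDIT3 that are linked to cell death. Aminoacyl-tRNA synthetases join each amino acid to its tRNA, and a tRNA left uncharged is one of the signals that start the pathway. ATF4 itself is controlled mainly through translation, so its mRNA level says little about its protein.

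RNA was sequenced from T24 cells, a human bladder cancer line, in 3 samples with an empty vector (vector) and 3 samples with overexpressed RNF112 (oeRNF112), an E3 ubiquitin ligase. The comparison asked which transcripts differ when RNF112 is raised, and all 6 samples came from the same line, grown in medium with serum. The labels do not say whether the replicates were separate cultures, so p-values measure only the spread between these samples, which may be technical. The study's methods describe transfection of an RNF112 plasmid with a lipid reagent, and also a stable T24 line made with RNF112 lentivirus. The RNA-seq methods do not say which was sequenced, while the treatment text in the labels speaks of siRNA. The time from delivery of RNF112 to harvest was not given in the sources used here.

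Total counts lay between 40326143 and 41259569 per vector sample and between 40029547 and 40541536 per oeRNF112 sample. The RNF112 count was 27, 19 and 24 in vector against 29753, 36963 and 31712 in oeRNF112, a log2 fold change of 10.37 (SE 0.18, adjusted p = 7.4e-10, edgeR's quasi-likelihood test), so the targeted gene followed the labels. The tumor cell markers were abundant, with VIM the highest at a mean of 4085 CPM (the count scaled to a common library size with TMM factors), and their summed level was 12007, 11160 and 12395 CPM in vector and 10201, 10504 and 9332 CPM in oeRNF112. Of the 8, KRT18 (log2 fold change -0.51, adjusted p = 0.013) and KRT7 (-0.48, adjusted p = 0.023, edgeR) fell, and 7 were below 0. Uroplakin genes UPK2 and UPK3A and the differentiation keratin KRT20 had at most 7 counts in any sample, UPK1A at most 20 and GATA3 117 to 173. PPARG, at 2056 to 2485 counts, was the most abundant gene of that list, and EPCAM rose on 94, 66 and 99 counts in vector and 143, 183 and 165 in oeRNF112 (0.84, adjusted p = 0.021, edgeR). Of 8 fibroblast genes, COL1A2, DCN, LUM and FAP had at most 3 counts in any sample, while ACTA2, the most abundant, fell from 1184, 1033 and 1345 counts to 876, 956 and 750 (-0.55, adjusted p = 0.023, edgeR). PDGFRA passed as higher on 1, 3 and 8 counts in vector and 19, 29 and 19 in oeRNF112, and COL1A1 (262 to 421 counts) and PDGFRB (64 to 126 counts) did not pass.

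Of the 44 genes, 15 rose and 2 fell in oeRNF112 at an adjusted p under 0.05, and 27 did not pass. Since the RNA was bulk, a change in all cells and a change in the share of responding cells cannot be told apart. Across all 14467 genes tested, 18.1% passed, 9.97% higher and 8.14% lower. All 44 genes passed the filter on low counts. Their median log2 fold change was 0.15, beside 0.0027 over all genes tested. In 20 of the 44 every oeRNF112 sample lay above every vector sample and in 7 every one lay below, against 18.9% and 17.9% of all genes tested (36.8% in either direction). Scaling by library totals in place of TMM moved the median of all genes by about 0.1 (to 0.096), and 75.4% of the genes called were then higher instead of 55.0%. Under that scaling 19 of the 44 were higher and 2 lower. Without vector replicate 1 or oeRNF112 replicate 1 the number higher was 9, and the number lower was 4 without vector replicate 2 and 1 without vector replicate 1 or oeRNF112 replicate 3.

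**Figure D1:**
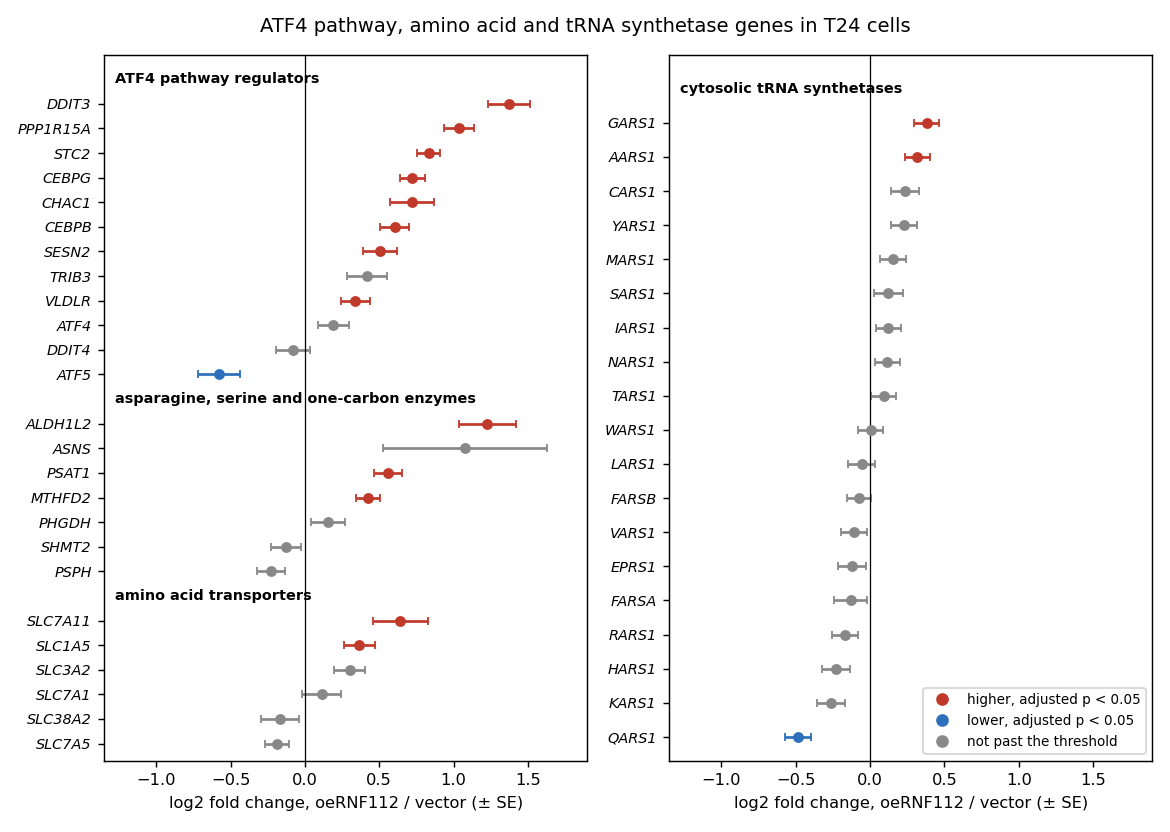
Log2 fold change (oeRNF112 over vector, with its standard error) of each of the 44 genes, in panels by role. Red points were higher and blue points lower at an adjusted p under 0.05, and grey points did not pass. Most regulators lie to the right of 0, while the 19 synthetases lie on both sides between -0.49 and 0.38.

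Among the 12 regulators and targets of the pathway, 8 rose, 1 fell and 3 did not pass. The median log2 fold change of the 12 was 0.55. The genes that rose included DDIT3, PPP1R15A, STC2, CEBPG and CEBPB. On a log2 scale set to 0 at the vector mean, their median stood at 0.03, -0.15 and 0.14 for vector replicates 1 to 3 and at 0.50, 0.64 and 0.57 for the oeRNF112 replicates. Vector replicate 2 was thus the lowest and oeRNF112 replicate 2 the highest, and the groups did not overlap.

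ATF4 (chr22:39520559-39522686, GRCh38.p14) had 436, 375 and 464 CPM in vector and 483, 527 and 448 CPM in oeRNF112. The groups overlapped, with the lowest oeRNF112 sample below the highest vector sample. The log2 fold change was 0.19 (SE 0.10, adjusted p = 0.23, edgeR), so no difference in ATF4 mRNA was detected. It was 0.29 with library totals (adjusted p = 0.061, edgeR) and 0.28 and 0.29 with limma on RPKM (adjusted p = 0.056 and 0.054). The counted region may reach beyond the coordinates given, since the implied length described below exceeds the gene span.

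DDIT3 (CHOP; chr12:57516588-57520517), a transcription factor of the lasting stress response, had 27.3, 23.3 and 31.5 CPM in vector and 66.6, 83.1 and 63.1 CPM in oeRNF112. The lowest oeRNF112 sample was above the highest vector sample, and DDIT3 had the largest log2 fold change of the 44 genes, 1.37 (SE 0.14, adjusted p = 0.00034, edgeR). PPP1R15A (GADD34; chr19:48872421-48876058), the regulatory subunit that directs a phosphatase to eIF2 and so ends the response, had 80.8, 72.5 and 89.3 CPM in vector and 155, 179 and 165 CPM in oeRNF112. The change was 2.05-fold (log2 1.04, SE 0.10, adjusted p = 0.0003, edgeR), with no overlap between groups. STC2 (stanniocalcin 2; chr5:173314723-173328414), a secreted glycoprotein, varied little between replicates. Its values were 182, 186 and 180 CPM in vector and 327, 336 and 316 CPM in oeRNF112 (log2 fold change 0.83, SE 0.078, adjusted p = 0.00025, edgeR).

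CEBPG and CEBPB encode basic leucine zipper proteins of the C/EBP family that can pair with ATF4. CEBPG had 32.4, 33.7 and 32.2 CPM in vector and 53.8, 53.2 and 55.4 CPM in oeRNF112 (log2 fold change 0.72, SE 0.083, adjusted p = 0.00063, edgeR). CEBPB had 112, 98.1 and 116 CPM in vector and 158, 180 and 158 CPM in oeRNF112 (0.60, SE 0.098, adjusted p = 0.0032, edgeR). In both genes the groups were separate, and CEBPG varied less between replicates. The antisense gene CEBPB-AS1 had 29, 21 and 30 counts in vector and 47, 53 and 29 in oeRNF112, far below CEBPB, and the strand setting used for counting was not given in the sources used here, so reads of the pair may be mixed.

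CHAC1, which breaks down glutathione, was low, at 4.85, 3.88 and 5.23 CPM in vector and 7.84, 7.27 and 7.86 CPM in oeRNF112 (log2 fold change 0.72, SE 0.15, adjusted p = 0.0098, edgeR). Its counted region may reach beyond the gene, since the implied length described below exceeds the gene span. SESN2, a leucine sensor that restrains mTORC1, had 22.3, 18.6 and 24.5 CPM in vector and 29.7, 30.1 and 32.8 CPM in oeRNF112 (0.50, SE 0.12, adjusted p = 0.016, edgeR). VLDLR, a lipoprotein receptor, had 24.5, 28.5 and 23.9 CPM in vector and 33, 32 and 32.4 CPM in oeRNF112 (0.34, SE 0.099, adjusted p = 0.040, edgeR). The groups were separate in these 3 genes, but the call for SESN2 and VLDLR depended on single samples. For SESN2 the adjusted p was 0.060 without vector replicate 1, 0.051 without oeRNF112 replicate 1 and 0.057 without oeRNF112 replicate 3. For VLDLR it was between 0.064 and 0.15 without any one sample other than vector replicate 2, and 0.052 with no filter on low counts.

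ATF5, a relative of ATF4 under similar translational control, was the regulator that fell. Its values were 18.5, 17.9 and 23.9 CPM in vector and 14.5, 14.1 and 11.9 CPM in oeRNF112, so every oeRNF112 sample was below every vector sample (log2 fold change -0.58, SE 0.14, adjusted p = 0.019, edgeR). The adjusted p was 0.054 without vector replicate 1 and 0.066 without oeRNF112 replicate 3. ATF5 overlaps NUP62, which had between 3146 and 3423 counts in every sample, and IL4I1.

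The other regulators were TRIB3, a pseudokinase that feeds back on ATF4 and DDIT3, and DDIT4 (REDD1), an inhibitor of mTORC1. TRIB3 had 89.0, 70.1 and 96.6 CPM in vector and 106, 131 and 105 CPM in oeRNF112, separate groups that missed the threshold (log2 fold change 0.42, SE 0.13, adjusted p = 0.054, edgeR). It passed with DESeq2 (adjusted p = 0.025), with no filter on low counts (0.036), with library totals (0.021), with limma on RPKM (0.021 and 0.025) and without vector replicate 3 (0.040). DDIT4 had overlapping groups, a log2 fold change of -0.08 (SE 0.11, adjusted p = 0.67, edgeR) and no stable sign, since it was 0.014 with library totals.

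**Figure D2:**
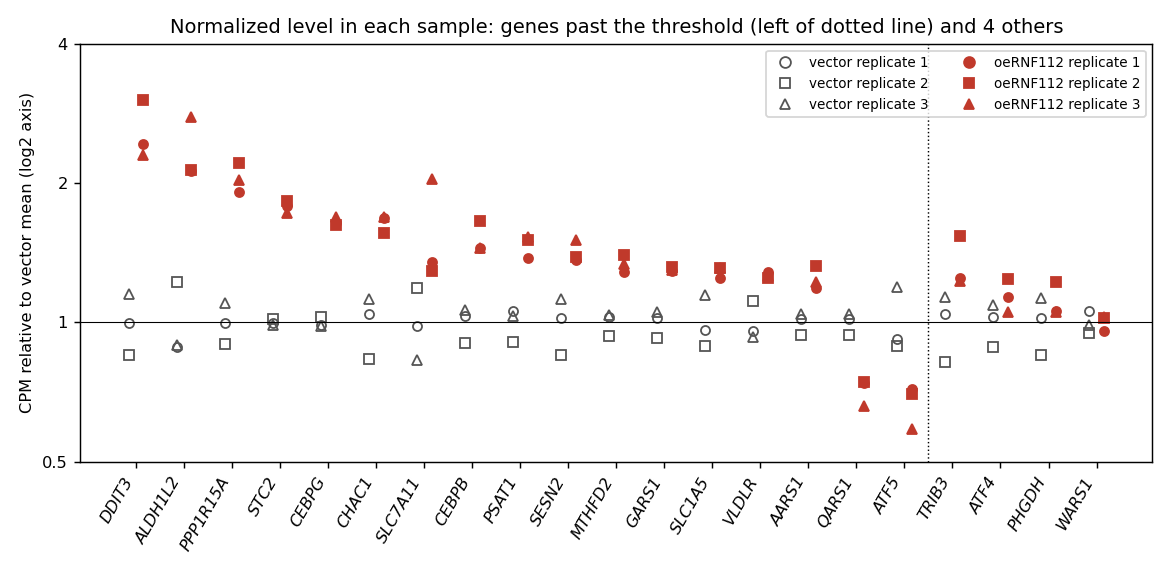
CPM in each of the 6 samples, divided by the vector mean, on a log2 axis, for the 17 genes past the threshold (left of the dotted line) and 4 others (right of it). Open symbols are vector and filled symbols oeRNF112 samples. In each of the 17 genes and in TRIB3 the open and filled symbols are separate, whereas in ATF4, PHGDH and WARS1 they overlap.

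Of the 7 metabolic enzymes, 3 rose and 4 did not pass. Their median log2 fold change was 0.42, which includes ASNS, whose level is uncertain as described below. The 3 were PSAT1, which transaminates the serine precursor, and the mitochondrial folate enzymes MTHFD2 and ALDH1L2. PSAT1 (chr9:78297125-78330093) had 219, 188 and 214 CPM in vector and 287, 313 and 317 CPM in oeRNF112 (log2 fold change 0.56, SE 0.092, adjusted p = 0.0034, edgeR). MTHFD2 had 178, 162 and 180 CPM in vector and 223, 242 and 232 CPM in oeRNF112 (0.42, SE 0.083, adjusted p = 0.0082, edgeR). ALDH1L2 (chr12:105019790-105084458), which turns formyl-tetrahydrofolate into carbon dioxide and NADPH, was low but rose more, from 2.05, 2.83 and 2.07 CPM to 4.92, 4.94 and 6.42 CPM (1.23, SE 0.19, adjusted p = 0.0027, edgeR). The groups did not overlap in any of the 3.

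The other steps of serine synthesis did not pass. PHGDH, the entry enzyme, had 173, 144 and 192 CPM in vector and 180, 208 and 179 CPM in oeRNF112, overlapping groups (log2 fold change 0.15, SE 0.12, adjusted p = 0.38, edgeR). PSPH, the last enzyme, was lower in every oeRNF112 sample without passing (-0.23, adjusted p = 0.12, edgeR). SHMT2, which makes glycine from serine in mitochondria, had a log2 fold change of -0.13 (adjusted p = 0.42, edgeR). PSAT1 was therefore the step of the serine route with a called difference, and the differences between the steps themselves were not tested.

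ASNS, asparagine synthetase, had almost no reads: 23, 34 and 4 counts in vector and 57, 25 and 54 in oeRNF112 (0.58, 0.85 and 0.10 CPM against 1.38, 0.61 and 1.28 CPM). The groups overlapped, with a log2 fold change of 1.08 and a wide error (SE 0.55, adjusted p = 0.20, edgeR). The level is uncertain because RefSeq places the read-through gene CZ1P-ASNS over ASNS. CZ1P-ASNS had 82, 60 and 65 counts in vector and 78, 53 and 73 in oeRNF112. Over 29 such read-through pairs in the table the median count was 429.5 for the upstream partner and 7.5 for the downstream partner, and 26 of the 29 downstream partners were under 100 counts. By another measure and cutoff, 12344 of all 23152 genes had a mean count of at least 50. That share is not directly comparable with the one for downstream partners. Whether the placement lowered the count of ASNS was not tested, and its expression cannot be read from these counts.

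Of the 6 amino acid transporters, 2 rose and 4 did not pass, and their median log2 fold change was 0.21. SLC7A11, the cystine importer of system xc-, had 56.0, 67.7 and 47.2 CPM in vector and 76.9, 73.5 and 116 CPM in oeRNF112 (log2 fold change 0.64, SE 0.18, adjusted p = 0.038, edgeR). SLC1A5, the glutamine carrier ASCT2, had 101, 93.3 and 120 CPM in vector and 131, 137 and 137 CPM in oeRNF112 (0.37, SE 0.10, adjusted p = 0.035, edgeR). Groups were separate in both, with oeRNF112 replicate 3 far above the others in SLC7A11.

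Both calls depended on single samples. For SLC7A11 the adjusted p was 0.13 without vector replicate 1, 0.11 without vector replicate 3, 0.059 without oeRNF112 replicate 1 and 0.11 without oeRNF112 replicate 3, and the last also lowered the log2 fold change to 0.40. It was 0.052 with limma on log2(RPKM + 1). For SLC1A5 the adjusted p was between 0.060 and 0.13 without any one sample other than vector replicate 3. The antisense gene SLC7A11-AS1 had 6, 9 and 8 counts in vector and 35, 28 and 37 in oeRNF112, and here too reads of the pair may be mixed, since the strand setting is not known.

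SLC3A2 and SLC7A5 are the heavy and light chains of LAT1, the carrier of leucine and other large neutral amino acids, and SLC3A2 is also the partner of SLC7A11. SLC3A2 was above in every oeRNF112 sample (254, 229 and 290 CPM against 311, 341 and 302 CPM) without passing (log2 fold change 0.30, adjusted p = 0.070, edgeR), and passed with library totals (0.019), with limma on RPKM (0.020 and 0.019) and without vector replicate 3 (0.032). SLC7A5 was below in every oeRNF112 sample (473, 512 and 500 CPM against 436, 416 and 451 CPM) and did not pass either (-0.19, adjusted p = 0.14, edgeR). The subunits thus had opposite signs, a contrast that was not tested. The arginine and lysine carrier SLC7A1 (0.11, adjusted p = 0.59, edgeR) and the small neutral amino acid carrier SLC38A2 (-0.17, adjusted p = 0.39, edgeR) had overlapping groups.

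Of the 19 cytosolic synthetases, 2 rose, 1 fell and 16 did not pass. Their median log2 fold change was 0.0044, close to that of all genes tested. There were 10 above and 9 below 0. In 5 every oeRNF112 sample lay above and in 4 below every vector sample. The summed level of the 19 was 3795, 3500 and 3734 CPM in vector and 3704, 3877 and 3746 CPM in oeRNF112, so the groups overlapped. The other 25 genes, beside them, had 13 higher, 1 lower and a median of 0.42, and this contrast of lists was not tested.

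GARS1 (chr7:30594735-30634033), the glycine enzyme, had 242, 219 and 249 CPM in vector and 305, 312 and 308 CPM in oeRNF112 (log2 fold change 0.38, SE 0.084, adjusted p = 0.013, edgeR). AARS1 (chr16:70252298-70289506), the alanine enzyme, had 272, 251 and 278 CPM in vector and 317, 354 and 326 CPM in oeRNF112 (0.32, SE 0.086, adjusted p = 0.031, edgeR). QARS1 (chr3:49095932-49104757), the glutamine enzyme, was the one that fell, from 282, 259 and 288 CPM to 204, 205 and 182 CPM (-0.49, SE 0.088, adjusted p = 0.0056, edgeR). Groups were separate in all 3, and the QARS1 call held without any single sample.

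For GARS1 the adjusted p was 0.051 without vector replicate 1 and 0.059 without oeRNF112 replicate 1. For AARS1 it was between 0.064 and 0.090 without any one sample other than vector replicate 3. WARS1, the tryptophan enzyme, which interferons also induce, stood at the middle of the 19, with 236, 212 and 220 CPM in vector and 213, 228 and 229 CPM in oeRNF112 (log2 fold change 0.0044, SE 0.083, adjusted p = 0.98, edgeR). The other 15 synthetases had log2 fold changes between -0.26 (KARS1) and 0.23 (CARS1). KARS1 (adjusted p = 0.031, edgeR) and HARS1 (0.037) passed as lower without vector replicate 2, and CARS1 (0.025) and YARS1 (0.023) as higher with library totals in place of TMM. With limma on RPKM, CARS1 (0.019 with either pseudocount), YARS1 (0.016) and MARS1 (0.044 and 0.046) passed as higher.

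In a split chosen after the values were seen, the 7 enzymes that sit in the cytosolic multi-synthetase complex (EPRS1, LARS1, IARS1, QARS1, MARS1, KARS1 and RARS1) had a median of -0.12 on the log2 fold change scale, and the 12 outside it 0.10. Of the 7 only QARS1 passed, and of the 12 GARS1 and AARS1, so no test is given.

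Per length, in the deposited RPKM (read counts scaled by gene length and library total), the synthetases of vector cells ranged from 121 ± 7.69 (SD, n = 3) for SARS1 to 11.0 ± 0.21 for FARSB. QARS1 was the third of the 19 in vector at 109 ± 4.18, with sample ranges that overlapped those of TARS1 just above it and of the transporter gene SLC3A2 just below it, and was 83.0 ± 4.43 in oeRNF112. GARS1 was 85.1 ± 4.19 in vector and 118 ± 1.40 in oeRNF112. Among the other genes, vector levels ran from 222 ± 11.2 for DDIT4 to 0.27 ± 0.058 for ALDH1L2, leaving out ASNS (listed at 0.15 ± 0.12), ATF4 and CHAC1, whose levels are uncertain. DDIT3 was 22.5 ± 3.02 in vector and 62.1 ± 8.26 in oeRNF112. The lengths implied by the RPKM of ATF4 (7.716 kb) and CHAC1 (6.081 kb) exceed their RefSeq gene spans of 2128 and 3042 bases. The annotation that gave these lengths is not known, so the RPKM of these 2 may be off by an unknown factor. The counted regions may also reach beyond these genes, which would touch their counts and CPM, and this was not tested.

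**Figure D3:**
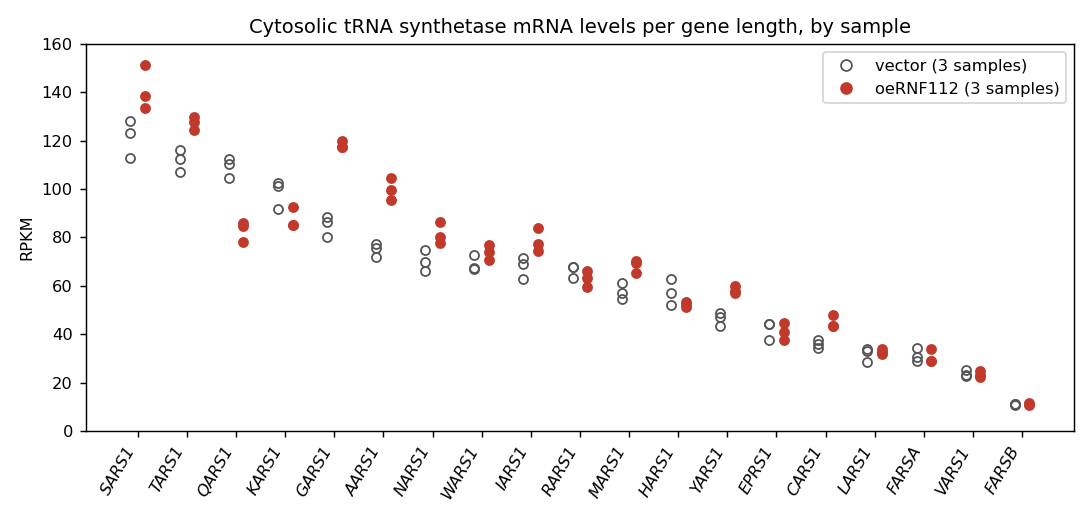
RPKM of the 19 cytosolic tRNA synthetases in each sample, ordered by the vector mean (open symbols vector, filled symbols oeRNF112). GARS1 and AARS1 stand higher and QARS1 lower in the 3 oeRNF112 samples. RPKM are scaled by library totals, so most other enzymes sit slightly higher in oeRNF112 than in CPM with TMM, and SARS1 is the highest and FARSB the lowest in vector.

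The promoters were searched because many of these genes are known to be bound by ATF4 paired with a C/EBP protein, at a composite element read here as TGATGNAA on either strand (TTNCATCA in reverse). Windows from 250 bases before to 50 after the start site, from RefSeq (GRCh38.p14), were at hand for 37 of the 44 genes. The element was in 10 of the 37 (27.0%) and in 1003 of all 27305 windows (3.67%). It was in 6 of 16 synthetase windows (37.5%), 2 of 5 transporter windows, 1 of 4 enzyme windows and 1 of 12 regulator windows. The 10 genes were AARS1, ASNS, CARS1, CHAC1, IARS1, MARS1, NARS1, SLC3A2, SLC7A1 and TARS1, of which CHAC1 and AARS1 passed the test. The E-box CACGTG, a site that MYC can bind, was in 3 of the 37 (8.11%: ATF4, IARS1 and SLC7A5) and in 2030 of all 27305 (7.43%). A match describes these letters only, and genes without one may be bound elsewhere.

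Stretches around the element (in capitals) are shown for CHAC1 and AARS1, which passed, and for ASNS and IARS1, which did not and were picked after their values were seen. In these 4 of the 10 genes the match lay wholly before the start site. They are CHAC1 at chr15:40953221-40953314 on the plus strand, AARS1 at chr16:70289641-70289738, ASNS at chr7:97872424-97872521 and IARS1 at chr9:92293698-92293755, these 3 on the minus strand. The match began 209, 187, 68 and 13 bases before the start site, in that order.
CHAC1: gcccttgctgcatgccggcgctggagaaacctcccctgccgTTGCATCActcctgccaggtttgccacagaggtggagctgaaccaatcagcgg
AARS1: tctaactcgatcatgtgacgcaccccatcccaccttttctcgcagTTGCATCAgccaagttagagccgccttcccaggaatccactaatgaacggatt
ASNS: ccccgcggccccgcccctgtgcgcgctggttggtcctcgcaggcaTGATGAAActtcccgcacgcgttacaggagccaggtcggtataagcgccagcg
IARS1: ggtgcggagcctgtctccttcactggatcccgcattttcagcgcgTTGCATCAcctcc
CHAC1, AARS1 and IARS1 hold the same 8 letters, here in reverse, whereas ASNS holds TGATGAAA. The log2 fold changes were 0.72 for CHAC1, 0.32 for AARS1 and 0.12 for IARS1, and none is set beside them for ASNS, whose level is uncertain.

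Upstream of ATF4, 18 genes for the eIF2 kinases, eIF2, its exchange factor eIF2B and their regulators had 1 higher and 2 lower, and the median log2 fold change was -0.08. The stress kinases PERK (EIF2AK3) and GCN2 (EIF2AK4) did not pass. EIF2AK2 (PKR), the kinase that senses double-stranded RNA, rose from 152, 178 and 123 CPM to 221, 206 and 262 CPM (0.60, adjusted p = 0.016, edgeR), a call lost without vector replicate 1 (0.072) or oeRNF112 replicate 3 (0.052). DELE1, which relays mitochondrial stress to the kinase HRI, fell from 72.9, 75.9 and 70.3 CPM to 50.2, 52.3 and 50.4 CPM (-0.52, adjusted p = 0.0029, edgeR), with separate groups. EIF2B1, an eIF2B subunit, was lower (-0.35, adjusted p = 0.025, edgeR) but the call was lost without any one sample other than vector replicate 2 (0.057 to 0.096) and with library totals (0.069).

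Downstream, 25 of 26 other genes known as ATF4 targets could be tested, and 10 rose while 15 did not pass. Their median log2 fold change was 0.31. On the log2 scale set to 0 at the vector mean, the median of these genes stood at 0.02, -0.09 and 0.06 for the vector replicates and at 0.31, 0.37 and 0.35 for the oeRNF112 replicates. GDF15, a stress hormone, rose from 18.3, 15.8 and 21.3 CPM to 37.2, 44.5 and 46.7 CPM (1.21, adjusted p = 0.00046, edgeR). GADD45A, a DNA damage and growth arrest gene, rose from 97.0, 79.9 and 109 CPM to 169, 200 and 186 CPM (0.96, adjusted p = 0.0010, edgeR). SLC1A4, a carrier of serine and alanine, and MAP1LC3B, an autophagy protein, rose by 0.81 and 0.69 on the log2 scale (adjusted p = 0.0016 for each, edgeR). Several of these genes also answer to other factors, as GADD45A does to p53.

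Among the remaining charging and folate genes most log2 fold changes were below 0. Over all 14467 genes tested, 18.1% passed, 8.14% as lower, and 7173 had a log2 fold change below 0. Of the 17 mitochondrial tRNA synthetases, 3 passed, each lower, and 14 had a log2 fold change below 0 (median -0.16). They were SARS2 (-0.57, adjusted p = 0.017), EARS2 (-0.37, adjusted p = 0.021) and WARS2 (-0.41, adjusted p = 0.025, edgeR), and each call was lost without vector replicate 1 (0.051, 0.082 and 0.11) and without oeRNF112 replicate 1 or 3 (0.0502 to 0.11). WARS2 was also lost without oeRNF112 replicate 2 (0.052), and EARS2 and WARS2 with library totals (0.061 and 0.064) and with limma on RPKM (0.079 to 0.089). Among 10 further synthetase genes and scaffolds of the complex, 2 passed as lower, both parts of the mitochondrial enzyme that makes glutaminyl-tRNA: GATC (-0.42, adjusted p = 0.0085) and GATB (-0.48, adjusted p = 0.025, edgeR). Without vector replicate 1 these were at 0.060 and 0.11, and without oeRNF112 replicate 1 at 0.055 and 0.11, and GATB was also lost without vector replicate 3 (0.066) or oeRNF112 replicate 3 (0.084).

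Of 20 other serine, glycine and folate genes, 4 passed, each lower, with a median of -0.18. The share over all genes tested was 18.1%, with 8.14% lower. SHMT1, the cytosolic partner of SHMT2, fell from 134, 126 and 131 CPM to 92.5, 97.2 and 88.4 CPM (-0.49, adjusted p = 0.0036, edgeR). TYMS, which makes thymidylate, fell by 0.53 on the log2 scale (adjusted p = 0.0074, edgeR), and the cytosolic enzyme MTHFD1 by 0.38 (adjusted p = 0.011, edgeR; 0.073 without vector replicate 1 and 0.071 without oeRNF112 replicate 1).

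**Figure D4:**
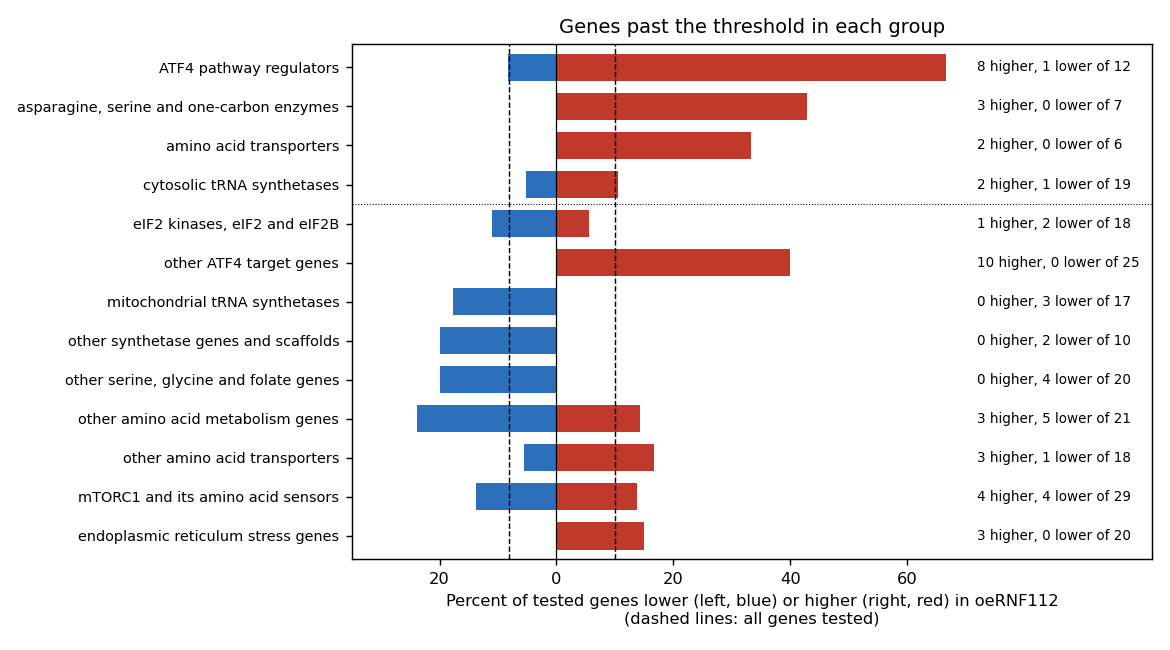
Percent of the tested genes of each group that were higher (right, red) or lower (left, blue) in oeRNF112 at an adjusted p under 0.05. Dashed lines mark all genes tested, 9.97% higher and 8.14% lower. The bars of the regulators (8 of 12), the metabolic enzymes (3 of 7) and other ATF4 targets (10 of 25) reach farthest to the right. Those of the 17 mitochondrial synthetases, the other synthetase genes and scaffolds, and the other serine, glycine and folate genes lie to the left only.

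Markers of other cells were looked at beside these results. The summed level of 10 leukocyte genes was 37.1, 33.4 and 34.7 CPM in vector and 60.3, 70.6 and 56.0 CPM in oeRNF112. Its most abundant gene was CD68, a lysosomal protein that many cells make, which rose from 25.0, 21.8 and 24.7 CPM to 51.3, 64.3 and 49.7 CPM (log2 fold change 1.21, adjusted p = 0.00031, edgeR). The defining leukocyte gene PTPRC had 54, 37 and 40 counts in vector and 33, 24 and 26 in oeRNF112, lower in each oeRNF112 sample, and the T cell gene CD3E had 0 counts in every sample except oeRNF112 replicate 3, with 4. The 100 most abundant genes held 22.4%, 20.6% and 22.9% of counts in vector and 19%, 19.6% and 18.0% in oeRNF112. LAPTM5, a lysosomal protein of blood cells, fell from 293, 258 and 231 counts to 215, 108 and 125 (-0.88, adjusted p = 0.031, edgeR). The part of these markers and of the share of abundant genes in the results was not tested.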

How the data were processed

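The authors deposited 2 tables for the 6 samples: read counts per gene, without normalization, and RPKM values. Per the submitters' processing notes, Trimmomatic 0.36, featureCounts and Subread 1.5.1 were used with GRCh38, and the aligner and annotation were not given in the sources used here. For 20637 of 20637 genes compared, the RPKM equalled the count scaled by column total and 1 gene length (relative tolerance 0.001), so the tables hold the same measurement. Counts were tested with edgeR 4.0.16 in R 4.3.3 (filterByExpr, TMM, quasi-likelihood test) over the whole table, 14467 genes after the filter, with Benjamini-Hochberg adjustment over all of them and a threshold of 0.05. CPM are counts over TMM-scaled totals, with TMM factors of 0.957 to 0.988 for vector and 1.01 to 1.05 for oeRNF112. Before TMM scaling, a count of 3 corresponds to about 0.073 to 0.075 CPM. Every pair of samples differed by more than sampling noise. The test was also run on simulated data, where it recovered 26.8% of 97 genes changed by 0.5 on the log2 scale. At a change of 1 it recovered 93.9% of 98 genes, and 9 of 127 calls were false. The simulation tested 14294 genes and changed few of them, whereas 2620 of 14467 genes were called in the data. With fewer calls the adjusted threshold was stricter there, so these shares do not give the recovery in the data. Alternatives were DESeq2 1.42.0, DESeq2 size factors or library totals in edgeR, other filters, a replicate block, limma 3.58.1 on log2(RPKM + 1) and log2(RPKM + 0.1), and leaving out each sample. The 44 genes and the other lists were chosen with earlier results of these data known. Values in every sample are given for RNF112, ATF4, members past the threshold and DDIT3, ASNS, PHGDH, SLC7A11 and WARS1, and also for TRIB3, SLC3A2, SLC7A5 and some other listed genes, chosen after their values were seen. At most 4 genes with the smallest p-values are named from each other pathway list. Marker genes of other cells were named after their values were seen, as were the kinases EIF2AK3 and EIF2AK4 and the Rag genes RRAGA and RRAGB. A gene of the folate list is not reported here.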

Additional observations from a re-analysis of the deposited data

How the results depend on the processing

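Of the 17 genes called among the 44, 8 passed under each alternative (DDIT3, CEBPB, CEBPG, PPP1R15A, CHAC1, STC2, PSAT1 and ALDH1L2), MTHFD2 and QARS1 also passed without any single sample, and none of the 17 changed sign. For CHAC1 this holds for the region counted, which may reach beyond the gene. Leaving out 1 sample gave 702 to 1841 genes higher and 359 to 1546 lower, and 9 to 15 of the 44 higher and 1 to 4 lower, against 1442, 1178, 15 and 2. The lowest 2 counts over all genes came without vector replicate 1, and so did 9 of the 44 higher, a count also reached without oeRNF112 replicate 1. Using library totals instead of TMM, 659 genes were lower, the median log2 fold change of the 44 was 0.25 and that of the synthetases 0.099, beside 0.096 for all genes tested. With limma, 669 (RPKM + 1) and 682 (RPKM + 0.1) genes were lower, the synthetase median was 0.097 and 0.099, and the median of the 44 was 0.25 with RPKM + 0.1. Both share the scaling by totals. Genes that did not pass changed sign as follows: DDIT4 to 0.014 with library totals, 0.0057 and 0.0057 with limma and between -0.17 and 0.031 without 1 sample, FARSB to 0.018, 0.016 and 0.017, LARS1 to 0.036, 0.039 and 0.040 and between -0.12 and 0.011, SLC7A1 between -0.012 and 0.23, and WARS1 to -0.0023 with DESeq2 and between -0.033 and 0.062. The replicate numbers did not pair the samples: the correlation of same-numbered deviations was -0.11, -0.33 and -0.26. With the replicate number as a block in edgeR, 618 genes were higher and 258 lower, and of the 44, 8 were higher and 0 lower (16 and 2 at an unadjusted p under 0.05; DESeq2 without the block called 16 and 2). The block moved the calls of ATF5, SESN2, VLDLR, SLC7A11, SLC1A5, AARS1, GARS1, MTHFD2 and QARS1 to adjusted p between 0.065 and 0.20, and ended those of EARS2 (0.14) and WARS2 (0.15) among others outside the 44. ASNS was not tested with a mean count of at least 50. The cause of these shifts was not tested. ASNS, with 4 to 57 counts, had a standard error of 0.55, and the part of sequencing depth in this was not tested.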

Other observations

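Among 29 genes of mTORC1, the kinase complex that amino acids switch on, and of its sensors, 4 were higher and 4 lower, and the median log2 fold change was -0.12. DDIT4L, a relative of DDIT4 that restrains mTORC1, rose from 1.85, 1.78 and 1.27 CPM to 4.61, 4.87 and 5.60 CPM (log2 fold change 1.62, adjusted p = 0.00069, edgeR). Of the Rag GTPases that carry the amino acid signal, RRAGD (0.81, adjusted p = 0.0013, edgeR) and RRAGC (0.43, adjusted p = 0.0072, edgeR) rose. RRAGA (-0.018, adjusted p = 0.93, edgeR) and RRAGB (-0.12, adjusted p = 0.47, edgeR) did not pass. AKT1S1, an mTORC1 inhibitor, fell (-0.49, adjusted p = 0.0071, edgeR). Among 20 genes of endoplasmic reticulum stress 3 passed, each higher, with a median of -0.03. ERN1 (IRE1), a sensor of unfolded proteins, rose from 9.30, 10.6 and 7.90 CPM to 20.8, 18.2 and 24.8 CPM (1.20, adjusted p = 0.00092, edgeR).

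Of 21 other amino acid metabolism genes tested, 3 were higher and 5 lower, with a median of -0.12. ODC1, which starts polyamine synthesis, rose (0.77, adjusted p = 0.0023, edgeR). AHCY of the methionine cycle (-0.67, adjusted p = 0.0026), ALDH4A1 of proline breakdown (-0.73, adjusted p = 0.0079) and BCAT2 of branched-chain amino acid breakdown (-0.62, adjusted p = 0.010, edgeR) fell. Of 18 other amino acid transporters tested, 3 were higher and 1 lower. SLC43A3, of a family of amino acid carriers, rose (0.66, adjusted p = 0.0018, edgeR), while SLC7A8 passed on only 3, 4 and 3 counts in vector and 20, 12 and 18 in oeRNF112 (adjusted p = 0.012, edgeR; 0.058 without vector replicate 1 and 0.056 without oeRNF112 replicate 1).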
